A study of Mus musculus with 12 samples.

Results

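The genes followed here are autosomal, set XX from XY gonadal cells apart by 11.5 days post coitum (dpc), and are not textbook genes of ovary formation: Sprr2d, Lcn2, Ugt2b36, Tph2, Slitrk1, Gbp2b, Morn1 and 4930563E18Rik. They are 8 of the 18193 genes that had a probe set named for them alone. They were chosen by a readout of these same 12 arrays: the change from 10.5 to 11.5 dpc in females exceeded that in males by about 8-fold or more. All 4 groups enter that measure, so the levels of the 8 genes are a description and carry no test. Tests were kept for other genes, namely relatives, pathway partners and chromosomal neighbours. The lists of relatives and partners were made with earlier results of these data known, so their counts are not independent of these data.

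RNA came from mouse embryos that carried enhanced green fluorescent protein under the promoter of Sf1 (Nr5a1), a nuclear receptor gene active in the somatic cells of the early gonad and the adrenal primordium. Green cells of the gonad were isolated by flow sorting, and the RNA was amplified 2 times, labelled with biotin and read on Affymetrix arrays. There were 4 groups with 3 arrays each: females at 10.5 dpc, males at 10.5 dpc, females at 11.5 dpc and males at 11.5 dpc. All groups carried the same transgene and none was treated; strain and pooling of embryos are not given in the sources used here. No source states that the arrays of a group stem from separate embryos; errors and p-values thus cover the array-to-array spread alone, and part of it may be technical.

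The early gonad is bipotential. In XY embryos the Y-linked gene Sry starts Sertoli cell differentiation in the supporting cells during the second of these ages, whereas in XX embryos WNT4 and RSPO1 signalling and, later, FOXL2 lead the same precursors towards pregranulosa cells. The 8 genes belong to other fields of biology. Sprr2d codes for a small proline-rich protein of the cornified envelope of skin, and the Sprr2 genes are also known from the oestrogen-stimulated uterus. Lcn2 codes for a secreted lipocalin that binds bacterial iron carriers and is abundant in neutrophils and inflamed epithelia. Ugt2b36 belongs to the enzymes that couple steroids and drugs to glucuronic acid, chiefly in liver. Tph2 is the neuronal tryptophan hydroxylase, the first enzyme of serotonin synthesis. Slitrk1 is a leucine-rich repeat protein of the neuronal surface, Gbp2b an interferon-induced GTPase, and Morn1 a protein with MORN repeats. 4930563E18Rik is annotated as a long noncoding RNA.

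Values are intensities on a linear scale after robust multi-array averaging (RMA) by the authors, and changes are differences of log2(intensity + 1) with standard errors (SE) from limma. A pseudocount of 1 was added before the logarithm. Quantile normalization, a step of RMA, gives all arrays nearly the same distribution, so only changes relative to the other transcripts can be seen. As a measure of background, 7 Y-linked probe sets in the females at 10.5 dpc, which lack a Y chromosome, read from 5.24 to 17.5 with a median of 7.06. Among these genes Eif2s3y averaged 9.80 in females at the first age and 64.7 at the second, where males had 1606, while Kdm5d averaged 7.07 and Uty 8.69 in females at 11.5 dpc. Across probe sets, r between arrays of a group was 0.998 to 0.999. The number of arrays limits the precision. In bulk samples, fewer cells of a type and less RNA per cell cannot be told apart.

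The values at 11.5 dpc entered the choice of the 8 genes and are described without a test. Every female array was above every male array at that age in 8 of 8 genes, as in 30% of all genes, and the lowest female array exceeded the highest male array by 4.46-fold to 14.8-fold. At 10.5 dpc the mean levels of the sexes were within 2-fold of each other in 8 of 8. Of all genes, 3.13% were higher and 1.43% lower in females at that age, by at least 2-fold with a limma adjusted p under 0.05. Female and male arrays overlapped in 4 of the 8 and were apart in 4, where they were apart in 47.2% of all genes. Over the day, 7 of the 8 went up in females by more than 2-fold and 1, Gbp2b, went down. With the same limits on p and fold, 5.84% of all genes rose and 7.61% fell in females, and 5.86% rose and 5.28% fell in males. In males the level stayed within 2-fold in 5 of the 8. It went down by more than 2-fold in 2 (Gbp2b and Morn1) and up in 1 (Sprr2d). Males thus had a smaller increase than females for Sprr2d, a larger decrease for Gbp2b, a decrease against a female increase for Morn1, and changes within 2-fold for the rest.

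**Figure D1:**
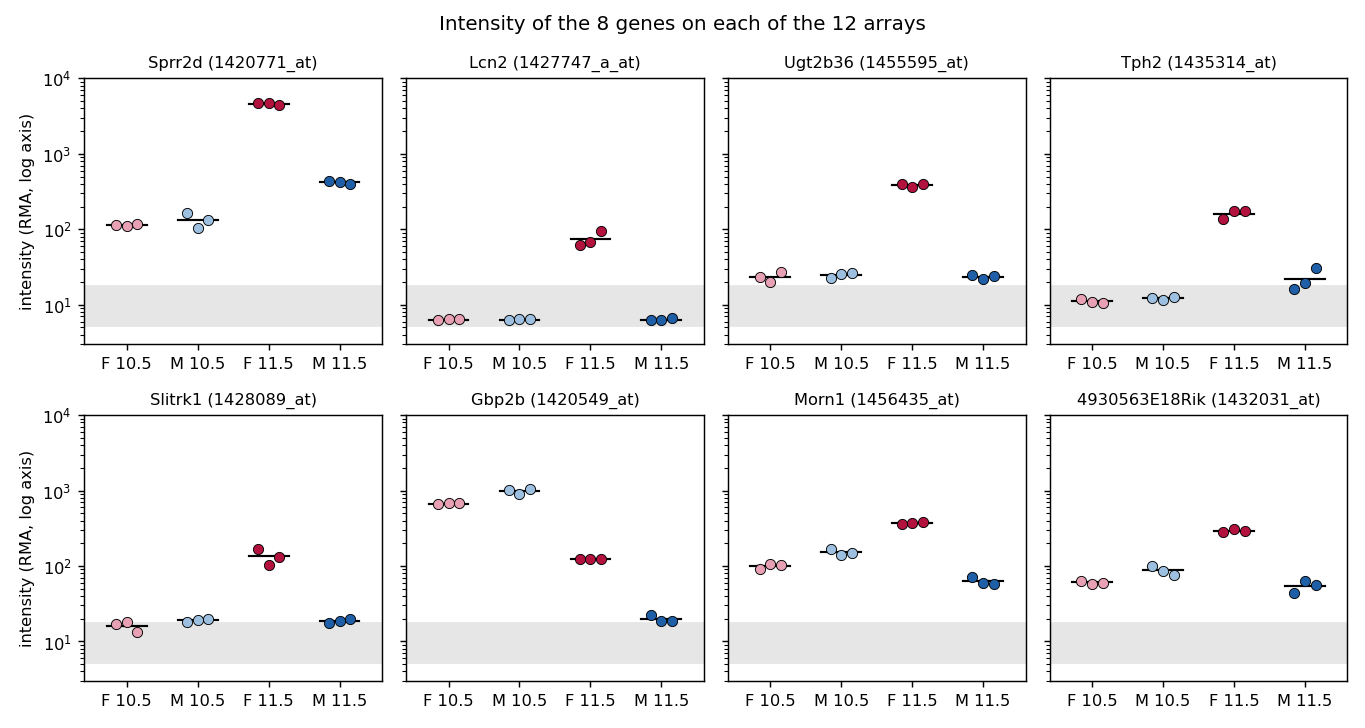
Intensity of each of the 8 genes on a log axis for females (F) and males (M) at 10.5 and 11.5 dpc. Points are single arrays, bars are means of 3 arrays, and the grey band spans the readings of 7 Y-linked probe sets in females at 10.5 dpc, 5.24 to 17.5. The female points at 11.5 dpc lie above the male points at that age in every panel, and in the Gbp2b panel both sexes lie lower at 11.5 than at 10.5 dpc.

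The difference between the female and the male change ranged from 2.95 to 4.09 on the log2 scale over the 8 genes, with a median of 3.13, where the median of all 18193 genes was 0.04. These values chose the genes and support nothing beyond that. Of 17403 autosomal genes, 6 exceeded a difference of 3 on the log2 scale, that is 8-fold: Ugt2b36, Sprr2d, Lcn2, A330076H08Rik, Morn1 and Gbp2b. A330076H08Rik is past this value (3.27) but is not among the 8; its level stayed near 100 in females (106 and 100.2) and went from 259 to 24.7 in males. Slitrk1 (2.98), Tph2 (2.97) and 4930563E18Rik (2.95) are just inside the looser "about 8-fold", and the next genes outside were Gng13 (2.89), Gabrb1 (2.83), Plxna4 (2.75), 6430710C18Rik (2.65) and Lypd6b (2.65). Over all genes, 1.82% passed the test of this difference upwards and 3.28% downwards, where a gene passed with a Benjamini-Hochberg adjusted p under 0.05 over all 45037 tested probe sets and a change of at least 2-fold. Here and below, a larger or smaller female change is meant with its sign. A gene that fell less in females than in males thus counts as larger in females.

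**Figure D2:**
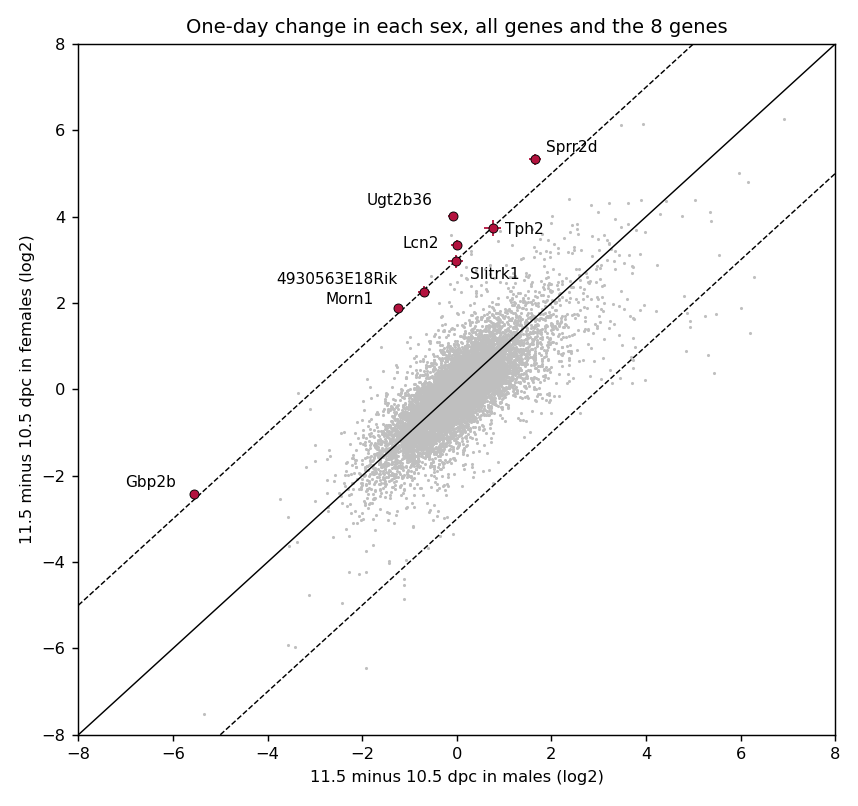
Change from 10.5 to 11.5 dpc in females against that in males, both as log2 differences, for 18193 genes (grey) and the 8 genes (red, with SE bars, n = 3 arrays per group). The solid line marks equal change and the dashed lines a difference of 3 on the log2 scale. Sprr2d lies far to the upper right, Gbp2b far to the lower left, and Ugt2b36, Lcn2 and Slitrk1 lie above a male change near 0.

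Sprr2d went up in both sexes. Its probe set 1420771_at read 113, 109 and 119 in females at 10.5 dpc and 165, 105 and 132 in males at 10.5 dpc. A day later the female arrays read 4716, 4692 and 4429 and the male arrays 434, 419 and 405. The sexes overlapped at the first age and were far apart at the second, with the males also above every array of the first age. Mean intensity went up 40.6-fold in females and 3.12-fold in males, as log2 changes of 5.33 ± 0.13 (SE) and 1.66 ± 0.13.

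Sprr2d lies on chromosome 3 in a cluster of near-identical Sprr2 genes, and its relatives with a probe set of their own differed. Sprr2f went from 29.3 to 79.0 in females and from 28.7 to 27.5 in males, and Sprr2k from 23.8 to 69.4 in females and from 23.8 to 23.9 in males. Both were higher in females at 11.5 dpc, Sprr2f by 1.48 ± 0.078 (limma adjusted p = 2.9e-07) and Sprr2k by 1.48 ± 0.14 (adjusted p = 1.3e-05), where 1.65% of all genes passed in that direction and 1.91% in the other. Sprr2h, Sprr2i and the pseudogene Sprr2j-ps lie between Sprr2f and Sprr2k in gene order and read between 6.84 and 11.8 in all 4 groups, within the background band. Probe sets that the platform annotation gives to several Sprr2a genes at once were described by their identifiers. 1450618_a_at (Sprr2a1 and Sprr2a2) went from 61.4 to 1325 in females and from 70.5 to 109 in males, and 1439016_x_at (Sprr2a1, Sprr2a2 and Sprr2a3) from 102.7 to 1318 and from 118 to 168. Their female change exceeded the male change by 3.78 ± 0.12 (adjusted p = 6.1e-08) and 3.18 ± 0.17 (adjusted p = 9.4e-07). A further probe set of Sprr2a1 and Sprr2a2, 1437258_at, read 60.7, 58.7, 62.8 and 49.9 in the 4 groups, with a difference of 0.26 ± 0.20 (adjusted p = 0.36). Sprr2b, Sprr2e and Sprr2g had no probe set of their own and were not analysed here, and cross-hybridisation between the near-identical transcripts was not tested.

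The stretches just upstream of the Sprr2 genes are shown because these neighbours moved together on the arrays to different extents. They are the 250 bases before the annotated transcription start, from RefSeq on GRCm38.p6, and capitals mark TATAAA.
Sprr2d (chr3:92338890-92339139, plus strand): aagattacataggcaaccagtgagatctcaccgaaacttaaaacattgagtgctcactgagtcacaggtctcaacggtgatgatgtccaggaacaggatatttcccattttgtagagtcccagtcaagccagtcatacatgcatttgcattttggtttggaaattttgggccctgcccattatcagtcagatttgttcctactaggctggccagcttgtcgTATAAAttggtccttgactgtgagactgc
Sprr2k (chr3:92432332-92432581, plus strand): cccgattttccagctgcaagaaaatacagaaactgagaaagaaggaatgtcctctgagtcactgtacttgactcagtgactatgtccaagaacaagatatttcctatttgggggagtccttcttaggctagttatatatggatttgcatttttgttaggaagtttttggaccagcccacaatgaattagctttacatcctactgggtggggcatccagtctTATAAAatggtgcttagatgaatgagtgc
Sprr2a1 (chr3:92215585-92215834, plus strand): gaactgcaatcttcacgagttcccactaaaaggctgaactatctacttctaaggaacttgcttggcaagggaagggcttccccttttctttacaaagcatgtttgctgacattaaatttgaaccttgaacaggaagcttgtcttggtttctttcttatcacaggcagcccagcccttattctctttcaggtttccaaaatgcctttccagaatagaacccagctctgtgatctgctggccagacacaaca
A TATAAA lies 29 bases before the start of Sprr2d and of Sprr2k. It lies at the same distance in Sprr2b, Sprr2e, Sprr2f, Sprr2h and Sprr2i. No match was found in this window of the Sprr2a genes. Just after its annotated start, however, Sprr2a1 holds a stretch close to the one before TATAAA in Sprr2b. The Sprr2a windows are thus not in register with the others, and bases further downstream were not searched. On either strand, TATAAA occurs in 13.6% of all 32851 windows of 300 bases (250 before to 50 after the start) in the table. Aligned with the Sprr2d window, that of Sprr2e was identical at 89.1% of aligned columns, Sprr2i at 78.2%, Sprr2f at 73.2%, Sprr2k at 67.5% and Sprr2a1 at 53.3%. The value of Sprr2a1 compares windows that are not in register, and Sprr2e had no probe set of its own. Among Sprr2i, Sprr2f and Sprr2k the order of likeness was not the order of the array changes. Sprr2i stayed at background, whereas the female change was 1.39 for Sprr2f and 1.49 for Sprr2k. The female change of 1450618_a_at of the Sprr2a genes was 4.41 and that of Sprr2d 5.33.

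Of the list of Sprr and cornified envelope genes, 17 of 24 had a probe set of their own. At 11.5 dpc 5 were higher in females and none lower, 3 rose in females over the day, 1 rose in males, and 4 had a larger change in females than in males. Among all genes 5.84% rose and 7.61% fell in females, and 5.86% rose and 5.28% fell in males. Tgm3, a transglutaminase that cross-links envelope proteins, rose in both sexes, from 9.34 to 163 in females and from 9.61 to 38.7 in males, and was higher in females at 11.5 dpc by 2.03 ± 0.31 (adjusted p = 0.00041). Lor, which codes for loricrin, the main protein of the envelope, went from 1915 to 3593 in females and from 1018 to 880 in males, and its difference between the sexes at 11.5 dpc was 2.03 ± 0.031 (adjusted p = 1.8e-10). With the mean of all probe sets of Lor, its female change exceeded the male change by 0.60 and the 2-fold call was lost. Sprr1a was higher in females at both ages, by 1.99 ± 0.078 and 1.74 ± 0.078, and had no call for a difference between the changes (adjusted p = 0.12). At 10.5 dpc, 2 genes of the list, Sprr1a and the keratin gene Krt10, were higher in females and none lower, with 3.13% of all genes higher and 1.43% lower at that age. Of the keratins of the basal epidermis, Krt14 averaged 4.46 to 4.57 in the 4 groups, below the background band. Krt5 averaged 50.04 to 61.4, above that band. The summed level of 11 measured epidermal markers was 232 to 242 on female and 199 to 214 on male arrays at 11.5 dpc, against 221 to 254 and 203 to 209 at 10.5 dpc, and 0 of the 11 had a call between the sexes at 11.5 dpc by limma, where 3 had an unadjusted p under 0.05 at any fold.

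Lcn2 started inside the background band in both sexes. Probe set 1427747_a_at read 6.19, 6.38 and 6.49 in females and 6.21, 6.44 and 6.49 in males at 10.5 dpc. At 11.5 dpc it read 62.0, 68.9 and 94.0 in females and 6.31, 6.21 and 6.58 in males. The male arrays and both groups of the first age lie inside the background band, so among the 4 groups the females at 11.5 dpc alone had a level above it, and a fold against the others would be a lower bound. The change in females was 3.35 ± 0.12 and that in males 0.00 ± 0.12. Because 3 groups lie at background, the size depends on the added constant: with a pseudocount of 16 the difference between the changes was 2.01 in place of 3.35.

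No other measured gene of the acute phase and lipocalin list had a call for this pattern. Of these genes 11 stayed below the upper edge of the background band in all groups, where little change could be seen. Of 27 measured genes of 30, none was higher in females at 11.5 dpc by limma (5 at an unadjusted p under 0.05 and any fold) and 1 was lower; 5 rose in females and 4 in males, and 3 had a larger change in males. These 3 were Ptgds, a lipocalin-type prostaglandin D synthase known from Sertoli cells, the adhesion molecule gene Icam1 and the chemokine gene Cxcl1. Ptgds went from 97.1 to 341 in females and from 89.0 to 1649 in males, a difference of -2.40 ± 0.22 between the changes (adjusted p = 2.2e-05). For Icam1 that difference was -1.80 ± 0.37 (adjusted p = 0.0039) and for Cxcl1 -1.19 ± 0.082 (adjusted p = 3.7e-06), the latter -0.77 and without a 2-fold call with the mean of all its probe sets. Slc22a17, proposed as a receptor of Lcn2, read 716 in females and 722 in males at 11.5 dpc (adjusted p = 0.86). Of 14 measured neutrophil granule genes 9 stayed below the upper edge of the background band in all groups, among them Ltf, Camp, Ngp, Mpo, Elane and Ctsg, each under 9 in every group. S100a8 went from 7.15 to 18.3 in females and from 7.22 to 8.14 in males (difference between the changes 1.08 ± 0.17, adjusted p = 0.00090); that difference lost its 2-fold call with a pseudocount of 16 (0.51) or without female replicate 3 of 11.5 dpc (0.97). The summed level of the 14 was 320 to 339 on female and 260 to 266 on male arrays at 11.5 dpc, and 348 to 366 and 281 to 294 at 10.5 dpc.

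Ugt2b36 was high in the females at 11.5 dpc alone. Probe set 1455595_at read 23.3, 20.1 and 26.9 in females and 22.6, 25.8 and 26.7 in males at 10.5 dpc. At 11.5 dpc it read 403, 369 and 399 in females and 24.9, 21.8 and 24.0 in males. Levels of the 3 groups other than the females at 11.5 dpc overlapped, and the lowest female array was 14.8-fold above the highest male array. The log2 change was 4.01 ± 0.099 in females and -0.08 ± 0.099 in males.

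None of the other measured glucuronosyltransferase genes had a call. Ugt2b36 lies on chromosome 5 between Ugt2b34, Ugt2b1 and Ugt2b35 on one side and Ugt2b5, Ugt2b37, Ugt2a3 and Ugt2b38 on the other. All 7 of these neighbours and the sulfotransferase gene Sult1b1 averaged between 3.72 and 7.64 in every group, and none passed in any comparison. Of 20 measured genes of the list of glucuronosyltransferases, sulfotransferases and their helpers, 0 passed in any of the 5 comparisons by limma with the 2-fold minimum, but 15 of them stayed below the upper edge of the background band in all groups, where little change could be seen. At an unadjusted p under 0.05 and any fold there were 4 between the sexes at 10.5 dpc, 6 at 11.5 dpc, 4 for the change in females, 11 in males and 6 for the difference between the changes. Ugdh, which makes the sugar donor of these enzymes, read 3281 and 3020 in females and 2783 and 3460 in males, and Ugp2, which acts just before it, 1467 and 1609 in females and 1880 and 1404 in males. Markers of liver were low: Alb averaged 24.5 to 26.7 in the first 3 groups and 50.9 in males at 11.5 dpc, and Apoa1, Apob and Fga stayed under 8. Afp, a fetal liver and yolk sac gene, went from 19.3 to 206 in females and from 7.23 to 2749 in males, the opposite sex order to Ugt2b36.

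Upstream of Ugt2b36 and Tph2 the windows are shown because each holds a match to a searched motif, in capitals: AAGGTCA, the core bound by steroidogenic factor 1, the product of the gene behind the sorting marker, in Ugt2b36, and TATAAA in Tph2.
Ugt2b36 (chr5:87092556-87092805, minus strand): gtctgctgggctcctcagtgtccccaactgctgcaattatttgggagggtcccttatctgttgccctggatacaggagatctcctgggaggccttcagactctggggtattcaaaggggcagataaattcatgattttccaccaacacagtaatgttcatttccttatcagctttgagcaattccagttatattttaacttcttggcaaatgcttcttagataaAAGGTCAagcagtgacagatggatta
Tph2 (chr10:115185023-115185272, minus strand): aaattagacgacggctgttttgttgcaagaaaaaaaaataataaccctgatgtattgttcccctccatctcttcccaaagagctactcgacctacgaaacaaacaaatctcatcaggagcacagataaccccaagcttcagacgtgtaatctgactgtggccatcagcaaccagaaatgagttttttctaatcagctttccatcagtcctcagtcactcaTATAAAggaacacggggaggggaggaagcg
AAGGTCA lies 26 bases before the start of Ugt2b36 and occurs on either strand in 4.72% of all windows. TATAAA lies 30 bases before the start of Tph2. The other motifs searched on both strands were CTTTGAT (TCF type, in 3.73% of windows), GGGACTTTC (NF-kB type, 0.353%), TTCNNNGAA (STAT type, 8.3%), the oestrogen response element (0.07%) and the interferon-stimulated response element (0.819%). No exact match to any of these was found in the windows of the 7 genes that have one. For 4930563E18Rik no window was at hand. The windows of Sprr2d, Lcn2, Ugt2b36, Tph2, Slitrk1 and Gbp2b held 42.3% to 56.3% G and C and 0 to 9 CpG, whereas that of Morn1 held 66.7% and 30 CpG, against medians of 52.7% and 7 over all windows. A match is a description of letters and was not tested as a binding site.

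Tph2 was low in every group but the females at 11.5 dpc. Probe set 1435314_at read 12, 10.9 and 10.6 in females and 12.2, 11.6 and 12.6 in males at 10.5 dpc, inside the background band. At 11.5 dpc it read 137, 175 and 173 in females and 16.4, 19.2 and 30.4 in males. Male replicate 3 was the highest of the male arrays and was still 4.52-fold below the lowest female array. The change was 3.73 ± 0.18 in females and 0.76 ± 0.18 in males, and without male replicate 3 of 11.5 dpc the male change was 0.51 and the difference between the changes 3.22 in place of 2.97.

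Several genes around serotonin and its cofactor tetrahydrobiopterin, which tryptophan hydroxylases need, went the same way, and others the opposite way. Of 29 measured genes of 33, 4 were higher in females at 11.5 dpc and none lower, 4 rose and 3 fell in females, and the female change was larger in 3 and smaller in 2. In males 0 passed by limma with the 2-fold minimum, and 12 had an unadjusted p under 0.05 at any fold. Gch1, the first enzyme of biopterin synthesis, went from 52.8 to 264 in females and from 47.1 to 72.7 in males and was higher in females at 11.5 dpc by 1.85 ± 0.13 (adjusted p = 2.1e-06). With the mean of all its probe sets the difference between its changes was 0.99 in place of 1.71, just short of 2-fold. Slc18a2, the transporter that loads monoamines into vesicles, went from 61.6 to 192 in females and from 55.2 to 74.2 in males, with 1.35 ± 0.12 between the sexes at 11.5 dpc (adjusted p = 8.8e-06). Maob, a monoamine oxidase, went from 7.26 to 29.4 in females and from 7.27 to 11.1 in males; its differences passed with a pseudocount of 1 but not with 16, where the sex difference at 11.5 dpc was 0.73. Pcbd1, which recycles the cofactor, was higher in females at both ages, by 1.24 ± 0.12 and 1.5 ± 0.12.

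Qdpr and Spr, enzymes that regenerate and finish the cofactor, went the other way. Qdpr fell from 1357 to 410 in females and read 436 and 544 in males, a difference of -2.04 ± 0.083 between the changes (adjusted p = 1.6e-07). Spr fell from 169.6 to 51.0 in females and read 73.0 and 67.3 in males (-1.59 ± 0.12, adjusted p = 7.4e-06). The decarboxylase gene Ddc, the next step of serotonin synthesis, fell in females from 226 to 103, with 122 and 95 in males; the change in females was -0.56 and without a 2-fold call with the mean of its probe sets. Tph1, the other tryptophan hydroxylase, averaged 6.04 to 6.58 and the serotonin transporter gene Slc6a4 18.2 to 23.5 in the 4 groups. Of 11 measured neuronal markers 9 fell in females over the day, as Qdpr and Spr did, and their summed level was 13050 to 13084 and 2966 to 3083 on female and male arrays at 10.5 dpc but 801 to 872 and 825 to 856 at 11.5 dpc. Their part in these results was not tested.

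**Figure D3:**
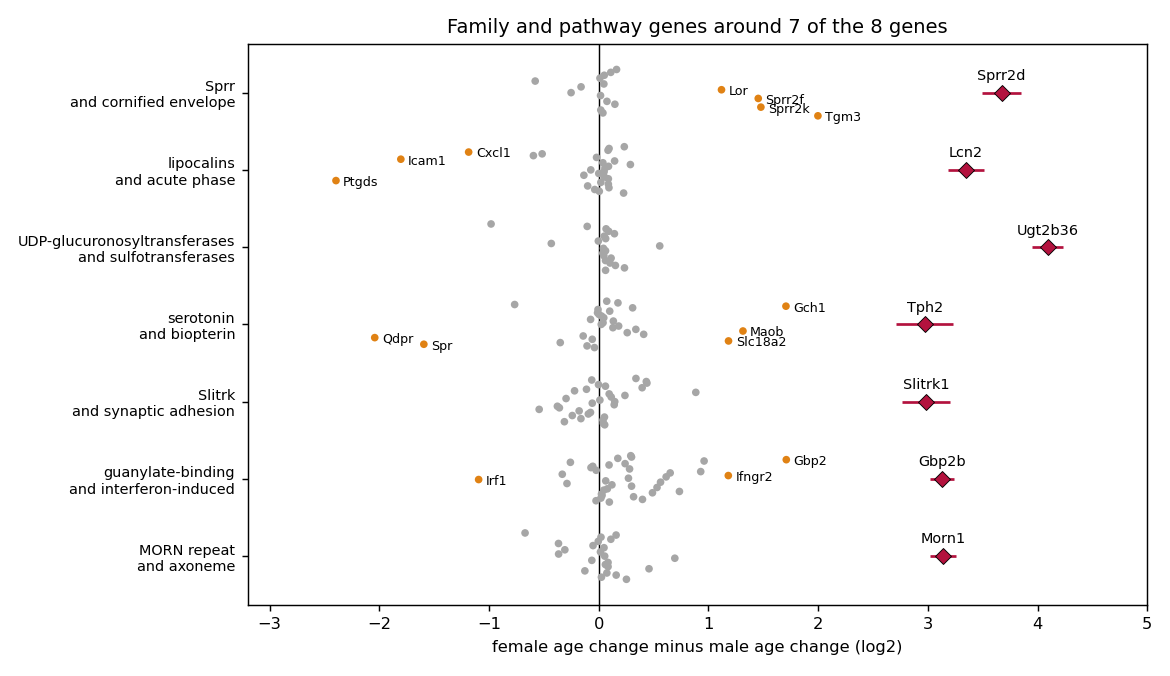
Difference between the female and the male change from 10.5 to 11.5 dpc (log2) for the genes of the 7 family or pathway lists; orange points passed the test with at least 2-fold, grey points did not, and red diamonds are the genes the lists were built around, with SE bars (n = 3 arrays per group) and no test. Lists scatter around 0, and the genes past the test lie on both sides.

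Slitrk1 read 17.2, 17.8 and 13.4 in females and 18, 19.1 and 20.0 in males at 10.5 dpc (probe set 1428089_at). At 11.5 dpc it read 169, 103 and 133 in females and 17.7, 18.9 and 19.7 in males. The male arrays of the 2 ages overlapped, close to the upper edge of the background band, while the female arrays at 11.5 dpc were apart from all others and spread the most. The change was 2.96 ± 0.16 in females and -0.02 ± 0.16 in males. With a pseudocount of 16 the difference between the changes was 2.22 in place of 2.98. Neither Slitrk6 (8.21 to 9.62) nor Slitrk5 (7.06 to 7.22), which lie next to it on chromosome 14, left the background band in any group. Of 31 measured genes of the Slitrk and synaptic adhesion list, 0 passed between the sexes at either age or for the difference between the changes, by limma with the 2-fold minimum, where 11, 16 and 7 had an unadjusted p under 0.05 at any fold and 12 stayed below the upper edge of the background band throughout; 3 rose and 2 fell in females, and 3 rose and 2 fell in males. Ptprd and Ptprs, receptor phosphatases that bind Slitrk proteins across the synapse, read 4008 and 1638 in females and 4540 and 1822 in males at 11.5 dpc. Flrt2, an adhesion protein related in structure, rose in both sexes, from 1211 to 2690 and from 1572 to 3648.

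Gbp2b went down in both sexes and ended higher in females. Probe set 1420549_at read 659, 675 and 675 in females and 1003, 894 and 1056 in males at 10.5 dpc, so males started higher with no overlap. At 11.5 dpc it read 124, 123 and 125 in females and 22.7, 18.5 and 18.8 in males. The mean level went down 5.40-fold in females and 49.2-fold in males, as log2 changes of -2.42 ± 0.076 and -5.55 ± 0.076. The word riser therefore does not describe this gene: its distance between the sexes came from the steeper decline in males, to just above the background band.

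Its neighbour Gbp2 on chromosome 3 followed the same course. Gbp2 fell from 307 to 126 in females and from 322 to 40.3 in males (-1.28 ± 0.14 and -2.99 ± 0.14), and was higher in females at 11.5 dpc by 1.64 ± 0.14 (adjusted p = 6.3e-06). With the mean of its probe sets the female fall was -0.80 and lost the 2-fold call. The next gene, Kyat3, an aminotransferase of tryptophan breakdown and no relative of the GTPases, fell in males from 747 to 173 and went from 779 to 459 in females, and was higher in females at 11.5 dpc by 1.40 ± 0.068 (adjusted p = 1.7e-07). Gbp3 (female mean 55.6 and male mean 35.4 at 11.5 dpc) and Gbp7 (164 and 135) lie on the other side of Gbp2b. Neither had a 2-fold call. Their sex differences were 0.63 ± 0.14 (limma adjusted p = 0.0058) and 0.28 ± 0.079 (adjusted p = 0.019). Gbp3 changed by 0.18 in females and -0.78 in males, and Gbp7 by -0.35 and -0.59. The female change exceeded the male change by 0.96 ± 0.20 (adjusted p = 0.0050) for Gbp3 and 0.24 ± 0.11 (adjusted p = 0.15) for Gbp7. In the searched windows, the one of Gbp2 held an exact match to the interferon-stimulated response element (GAAANNGAAAC) 60 bases before the start. The match lies on the reverse strand, so the gene's own strand reads GTTTCACTTTC there. The window of Gbp2b held no exact match. On its own strand it holds atttcactttc, which differs from those letters of Gbp2 in the first letter.

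Few interferon-induced genes of the list had a call for a fall as Gbp2b fell. Of 36 measured of 45, 14 stayed below the upper edge of the background band in all groups, where little fall could be seen. At 11.5 dpc 3 of the 36 were higher in females and none lower. Over the day 5 rose and 1 fell in females, and 4 rose and 1 fell in males. Of all genes, 5.84% rose and 7.61% fell in females, and 5.86% rose and 5.28% fell in males. In the list, the difference between the changes, female minus male, was positive in 2 and negative in 1. The positive ones were Gbp2, which fell further in males, and Ifngr2. Bst2, an antiviral membrane protein, rose from 72.3 to 798 in females and from 39.9 to 361 in males and was higher in females at 11.5 dpc by 1.14 ± 0.16 (adjusted p = 0.00020). Cxcl10 and Iigp1, classical interferon targets, rose in both sexes, Cxcl10 from 109 to 532 and from 101 to 399.7. The receptor gene Ifngr2 rose in females from 2298 to 5903 and read 3183 and 3606 in males, a difference of 1.18 ± 0.053 (adjusted p = 2.7e-07) that was 0.73 with the mean of its probe sets. Irf1, a transcription factor of this response, rose in males from 199 to 691 and went from 347 to 563 in females, a difference of -1.10 ± 0.075 (adjusted p = 3.7e-06).

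Morn1 rested on 1 of its 4 probe sets. The one that represents the gene, 1456435_at, read 92.1, 105 and 104 in females and 166, 140 and 148 in males at 10.5 dpc, and 361, 371 and 386 in females and 71.1, 60.3 and 58.3 in males at 11.5 dpc. The sexes did not overlap at either age and changed order over the day, with changes of 1.89 ± 0.085 in females and -1.25 ± 0.085 in males. Probe set 1433180_at averaged 90.2 and 111 in females and 77.7 and 73.6 in males, and its changes differed by 0.37 ± 0.13. The other probe sets, 1430609_at and 1433179_at, averaged 4.71 to 5.30 in all groups, at or below the low end of the background band. Averaged over the 4 probe sets the difference between the changes was 0.91 in place of 3.14. Which transcript 1456435_at detects was not tested. In the list of MORN repeat and axoneme genes, 2 of 23 measured were higher in females at 11.5 dpc, the radial spoke genes Rsph1 (1.05 ± 0.12, adjusted p = 7.0e-05) and Rsph9 (1.22 ± 0.12, adjusted p = 2.6e-05), and 0 had a call for the difference between the changes by limma, where 6 had an unadjusted p under 0.05 at any fold and 11 stayed below the upper edge of the background band. Rsph1 lost its 2-fold call with a pseudocount of 16 (0.94) or without female replicate 3, male replicate 1 or male replicate 3 of 11.5 dpc (0.97 to 0.99).

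**Figure D4:**
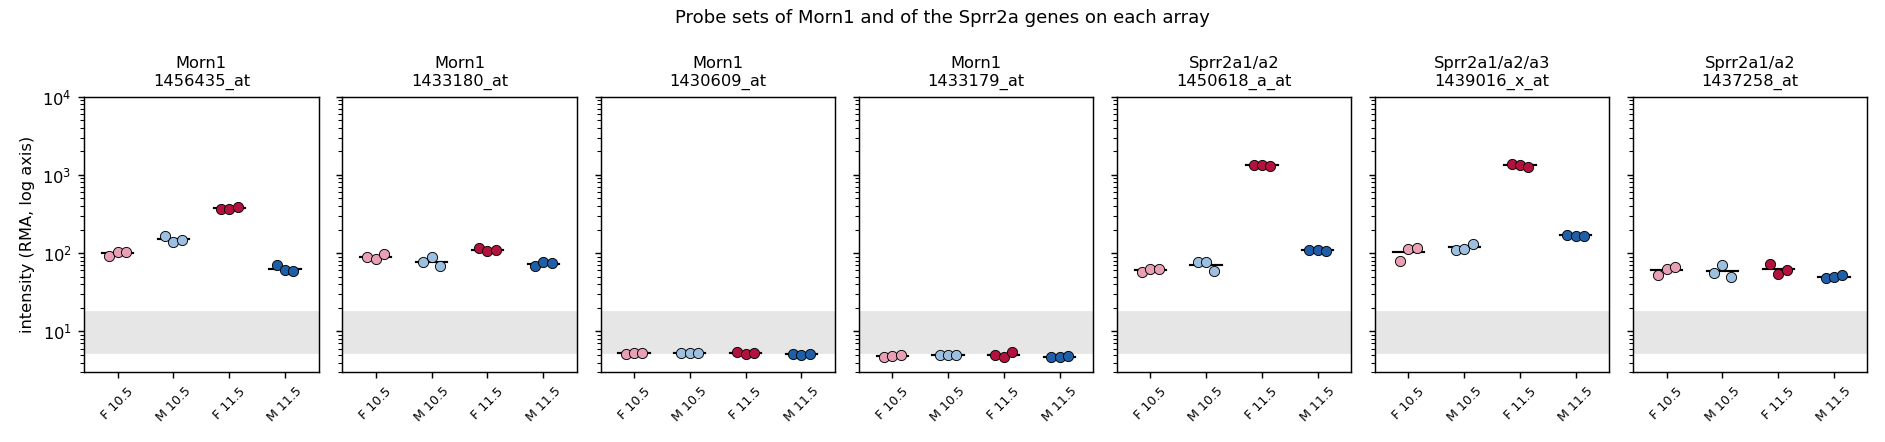
Intensity on a log axis of the 4 probe sets of Morn1 and of 3 probe sets shared by Sprr2a genes, for females (F) and males (M) at 10.5 and 11.5 dpc. Points are single arrays, bars are means of 3, and the grey band is the background of 5.24 to 17.5. For Morn1 only 1456435_at has female points at 11.5 dpc far above the other groups; of the Sprr2a probe sets 1450618_a_at and 1439016_x_at have them and 1437258_at has not.

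4930563E18Rik read 64.2, 58.4 and 59.3 in females and 101, 86.5 and 75.8 in males at 10.5 dpc (probe set 1432031_at). At 11.5 dpc it read 279, 314 and 292 in females and 44.1, 62.5 and 55.8 in males. As with Morn1, the males were higher at the first age and lower at the second, with no overlap at either. The change was 2.26 ± 0.13 in females and -0.69 ± 0.13 in males. Its neighbour on chromosome 18, Abhd3, a phospholipase, went the way of Gbp2b: it fell from 4329 to 2156 in females and from 4300 to 972 in males and was higher in females at 11.5 dpc by 1.15 ± 0.045 (adjusted p = 5.1e-08). Its fall in females was close to 2-fold, and without female replicate 3 of 10.5 dpc or female replicate 2 of 11.5 dpc it was -0.98 or -0.97. The gonadal transcription factor gene Gata6, also close by, read 1504 in females and 1174 in males at 11.5 dpc, without a 2-fold call between the sexes.

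Over all 80 neighbours, 5 on each side of each gene, 6 were higher in females at 11.5 dpc (7.5%, against 1.65% of all genes) and 1 lower (1.25%, against 1.91%). The 6 were Lor, Sprr2f and Sprr2k beside Sprr2d, Gbp2 and Kyat3 beside Gbp2b, and Abhd3 beside 4930563E18Rik; the lower 1 was Dnm1, a dynamin gene near Lcn2. They sit beside 3 of the 8 genes. No neighbour of Ugt2b36, Tph2, Slitrk1 or Morn1 passed between the sexes at 11.5 dpc. The same 6 passed with a positive difference between the changes, female minus male, and none with a negative one (8 at an unadjusted p under 0.05 and any fold, by limma). Lor, Sprr2f and Sprr2k went up in females, whereas Gbp2, Kyat3 and Abhd3 went down in both sexes, further in males. Neighbours of a tandem family share sequence and are not independent of each other.

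**Figure D5:**
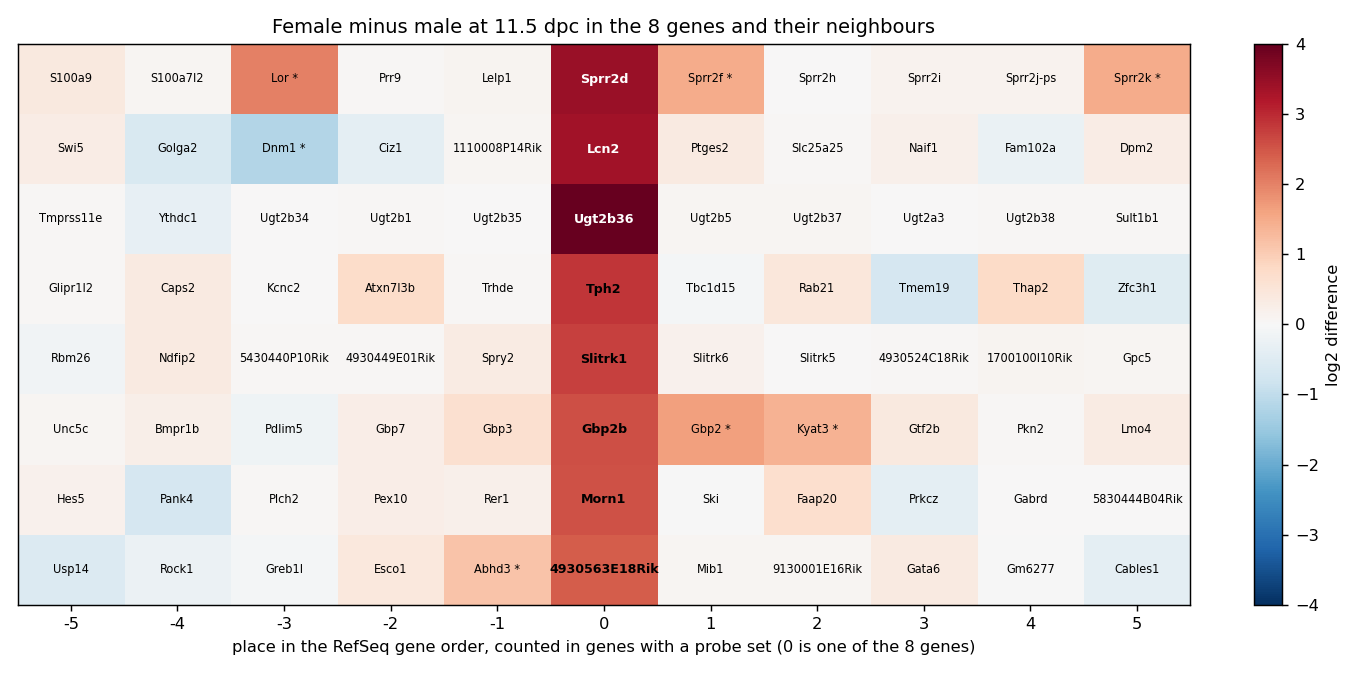
Difference between females and males at 11.5 dpc (log2, colour scale from -4 to 4) for each of the 8 genes (place 0, no test) and the 5 nearest genes with a probe set on each side in RefSeq order. Asterisks mark neighbours that passed the test with at least 2-fold: 6 higher and 1 lower in females, in the rows of Sprr2d, Lcn2, Gbp2b and 4930563E18Rik.

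Genes of the female programme and of the oestrogen response gave the setting in which the 8 genes changed. Of 21 measured ovary-promoting genes, 5 were higher in females at 11.5 dpc and 1 lower; 7 rose and 2 fell in females, 6 rose and 2 fell in males, and the female change was larger in 4 and smaller in 2. Wnt4 rose from 616 to 5033 in females and from 1036 to 2672 in males, a difference of 1.66 ± 0.070 (adjusted p = 2.1e-07). Fst, a follistatin gene induced downstream of WNT4, was higher in females at both ages, by 1.52 ± 0.13 and 2.16 ± 0.13. Gng13, a G protein subunit gene and the first gene outside the threshold, went from 19.5 to 181 in females and from 20.0 to 24.7 in males. Lgr5, a receptor for RSPO1, went the other way, from 15.2 to 26.8 in females and from 14.2 to 196 in males (-2.93 ± 0.18, adjusted p = 2.1e-06). Foxl2 stayed inside the background band, at 8.97 to 11.2. Foxl2os, annotated as a gene of its own, went from 8.96 to 62.9 in females and from 9.41 to 10.1 in males. The difference between its changes was 2.56 ± 0.21. Of 15 measured genes of the uterine oestrogen response, 2 were higher in females at 11.5 dpc and none lower, 4 rose in each sex, and the female change was larger in 3 and smaller in 2. Klk1, a kallikrein, rose from 9.03 to 702 in females and from 11 to 169 in males, a difference of 2.19 ± 0.38 (adjusted p = 0.0014). The oestrogen receptor gene Esr1 rose in females from 14.7 to 48.3 and read 19.8 and 29.1 in males; its difference of 1.12 ± 0.27 (adjusted p = 0.011) was 0.73 with a pseudocount of 16, 0.85 with the mean of its probe sets, and 0.95 without female or male replicate 1 of 11.5 dpc. Esr2 and Pgr did not exceed the background band.

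Among themselves, 7 of the 8 genes had similar courses over the 12 arrays and Gbp2b did not. Pearson's r between pairs of the other 7 was from 0.70 (Sprr2d and Morn1) to 0.99 (Lcn2 and Ugt2b36), and that of Gbp2b with them from -0.50 to 0.26; since all were chosen for the same contrast, these are descriptions without a test. Of 4627 genes whose group means span at least 2-fold, the profile nearest to the mean of the 8 was that of Chd4 (probe set 1436343_at, r = 0.994), a chromatin remodeller, at 2745 and 7103 in females and 3377 and 2543 in males. Next came Tmem174, Angel1, Sprr2f, H2al2a, Cpne8, Stum, Epb41l1, Edn2 and Defb7, with r from 0.966 to 0.982. Edn2, which codes for an endothelin, averaged 268 and 587 in females and 295 and 198 in males. By gene, the nearest was Gpd1l for Sprr2d (0.993), Sprr2f for Lcn2 (0.995), Tmem174 for Ugt2b36 (0.997), Ccdc61 for Tph2 (0.993), H2al2a for Slitrk1 (0.995), Kcnd2 for Gbp2b (0.994), Nceh1 for Morn1 (0.991) and Chd4 for 4930563E18Rik (0.994). All these r values share the 12 arrays and 4 group means, and r follows the single high group closely: by Spearman's rank correlation only 2 of the 10 genes nearest to the mean were again among its nearest 10.

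Several measures of the samples differed between groups alongside these genes, and their part in the results was not tested. The ratio of 3' to 5' control probe sets, which rises as RNA shortens, was 5.32, 9.90, 9.97 and 7.59 for Actb and 2.70, 4.65, 3.88 and 4.19 for Gapdh in females and males at 10.5 dpc and females and males at 11.5 dpc. Sums of marker intensities are given in the same order of groups. Germ cell markers summed to 4007 to 4157, 1154 to 1209, 2670 to 2739 and 1816 to 1868. Of 12 measured, 7 were higher in females at 10.5 dpc. Over the day 6 fell in females and 0 in males, and the difference between the changes, female minus male, was negative in 6. Endothelial markers summed to 1884 to 1987, 773 to 891, 1648 to 1724 and 1677 to 1760. Of 12, 5 were higher in females at 10.5 dpc, while none had a call between the sexes at 11.5 dpc by limma (2 at an unadjusted p under 0.05). Over the day 1 fell in females and 3 rose in males, and the difference between the changes, female minus male, was negative in 7. Erythroid markers summed to 6296 to 6771, 1219 to 1345, 15355 to 15664 and 6275 to 6649, with 3 of 9 measured higher in females at each age. Adrenal markers summed to 7546 to 7762, 5283 to 5477, 9714 to 10056 and 5582 to 5949, and 1 of 8 was higher in females at 11.5 dpc. Markers of nephric duct summed to 5898 to 6132, 5228 to 5521, 8427 to 8687 and 6415 to 6908. Of 12, 3 were higher in females at 10.5 dpc, and the difference between the changes, female minus male, was positive in 1 and negative in 3. Macrophage markers summed to 617 to 714, 594 to 635, 577 to 604 and 493 to 513, and 0 of 13 had a call between the sexes at 11.5 dpc by limma (4 at an unadjusted p under 0.05).

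Markers of gonadal somatic cells and of coelomic epithelium went down in sum over the day, further in males. The 9 measured somatic gonadal markers summed to 16076 to 16596 and 18625 to 18789 in females and males at 10.5 dpc. At 11.5 dpc they summed to 11009 to 11357 and 7780 to 7888. Of these markers 2 fell in females and 4 in males. The difference between the changes, female minus male, was positive in 2, Emx2 and Lhx9. Both of these genes went down further in males than in females. For Lhx9 that difference was 0.62 and without a call with the mean of its probe sets. The 10 markers of coelomic epithelium summed to 10937 to 11123, 12316 to 12666, 7998 to 8042 and 4946 to 5240 in the same order; 4 fell in each sex and 1 was higher in females at 11.5 dpc. Nr5a1 averaged 378 and 625 in females and males at 10.5 dpc and 549 and 748 at 11.5 dpc, with Wt1, Gata4, Lhx9 and Emx2 above 200 throughout. The part of these markers in the results was not tested.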

How the data were processed

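The authors deposited 1 table of intensity values on a linear scale for 45101 probe sets and 12 arrays, made with RMA per the submitters' processing notes (no version; the sources used here do not give the step from RMA's usual log2 output to a linear scale). Array medians were 41.2 to 43.9. After 64 control probe sets were left out, log2(intensity + 1) of 45037 probe sets was fitted with limma 3.58.1 in R 4.3.3 (1 mean per group, all 12 arrays, 8 residual and 1.89 prior degrees of freedom), with Benjamini-Hochberg adjustment within each of 5 comparisons; the fit was tested on simulated data. A call needs an adjusted p under 0.05 and a 2-fold change.

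Groups, ages and replicate numbers come from the sample titles. Gene names are those of the array's old platform annotation, updated to RefSeq GRCm38.p6: 34945 had 1 gene, 932 several and 9160 none, and 34741 matched. A gene is its probe set with the highest mean among those naming it alone, and one that may cross-hybridise only where there is no other. The 8 genes and all lists were chosen with earlier results of these data known. Named were all 8 genes with every probe set, up to 4 called genes per list and comparison, all called neighbours, the nearest profiles and the genes around the threshold; some relatives, partners and markers were added for their role after their values were seen. Same-numbered arrays of different groups did not deviate together (r from -0.14 to 0.08 over 18 pairs). Alternatives were other pseudocounts, filters, centring, probe set summaries, variance settings, a replicate block and leaving out each array.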

Additional observations from a re-analysis of the deposited data

Results flagged for a closer look

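The genes below passed the test of the difference between the female and the male change from 10.5 to 11.5 dpc. The test was limma, with an adjusted p under 0.05 and at least 2-fold. None of these genes is among the 8, and the lists were made with earlier results of these data known. Values are log2 differences, female minus male change, and none is weighed here.

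In the cornified envelope list the female change was larger for Tgm3 (2.00), Sprr2k (1.48), Sprr2f (1.45) and Lor (1.12). Among lipocalins and acute phase genes the male change was larger for Ptgds (-2.40), Icam1 (-1.80) and Cxcl1 (-1.19). Around serotonin and biopterin, Gch1 (1.71), Maob (1.31) and Slc18a2 (1.18) changed more in the female direction, and Qdpr (-2.04) and Spr (-1.59) in the male direction. Of the interferon list, Gbp2 (1.71) and Ifngr2 (1.18) were on the female side and Irf1 (-1.10) on the male side. The oestrogen response list held Klk1 (2.19), Esr1 (1.12) and Greb1 (1.02; 0.32 with the mean of its probe sets, and 0.997 or 0.97 without male replicate 1 of 10.5 or of 11.5 dpc) on the female side, and the cell cycle gene Ccnd1 (-1.72) and the receptor component gene Ramp3 (-1.08) on the male side; Ramp3 was near background in all groups, and with a pseudocount of 16 its value was -0.44. The ovary-promoting list held Gng13 (2.89), Wnt4 (1.66), Rspo1 (1.16) and the WNT inhibitor gene Nkd1 (1.21; 0.33 with the mean of its probe sets) on the female side and Lgr5 (-2.93) and Znrf3 (-1.12; -0.66 with the mean of its probe sets) on the male side. Of the neighbours outside these lists, Kyat3 beside Gbp2b had a difference of 1.34 and Abhd3 beside 4930563E18Rik of 1.14.

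Among probe sets that name several genes, and so stand for none in the comparisons, 1450618_a_at (Sprr2a1 and Sprr2a2) had a difference of 3.78 and 1439016_x_at (Sprr2a1, Sprr2a2 and Sprr2a3) of 3.18.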

How the results depend on the processing

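No called change of a named gene, and no change of at least 2-fold in the 8 genes, reversed its direction under the alternatives compared. Smaller changes were not counted as reversals and could change sign. The male change of Lcn2, for one, ran from -0.02 to 0.01 on leaving out 1 array. Counts were compared by size alone. With the replicate number as a block, 569 genes were higher and 260 lower in females at 10.5 dpc, as without it. Of 735 results of named genes, 734 kept their call status and 1 gained a call. No pair's correlation was over 0.1, which gave no sign that the numbers pair samples. In order of sex difference at 10.5 and at 11.5 dpc, change in females, in males, and difference between the changes, dropping the 2-fold minimum gave 4157, 3804, 4072, 4245 and 2615 genes higher and 3179, 3470, 4913, 5401 and 3452 lower; 41, 60, 70, 57 and 41 list genes higher and 19, 28, 27, 43 and 29 lower; and 16, 25, 20, 13 and 19 neighbours higher and 13, 11, 18, 31 and 7 lower. With the mean of all probe sets of a gene, 378 genes were higher and 111 lower in females at 10.5 dpc, 187 lower at 11.5 dpc (347 with the probe set of the highest mean), 853 (1385) fell in females, 567 (960) fell in males and 385 (596) had the smaller female change; of list genes 0 were lower at 10.5 dpc and 4 fell in females; of neighbours 0 were lower at 10.5 dpc, 0 lower at 11.5 dpc, 1 fell in females, 0 rose and 5 fell in males. A pseudocount of 16 left 0 list genes lower at 10.5 dpc, 3 falling in males, and 0 neighbours lower at 10.5 dpc and 5 falling in males. With each array centred on its median, 0 list genes were lower at 10.5 dpc, 2 neighbours were higher at 10.5 dpc, and 1 neighbour had the smaller female change. Leaving out 1 array gave 0 to 2 list genes lower at 10.5 dpc, 2 to 4 lower at 11.5 dpc (4 without female replicate 3), 1 to 2 neighbours higher and 0 to 1 lower at 10.5 dpc, and 0 to 1 with the smaller female change. Why these counts moved was not tested, apart from the minimum fold, which adds small changes by construction. Of the 8 genes, differences between the changes under a pseudocount of 16 were 3.42 for Ugt2b36, 2.29 for Tph2, 2.50 for Gbp2b, 2.82 for Morn1 and 2.59 for 4930563E18Rik. Signal over background limits Lcn2, Tph2 and Slitrk1, whose low groups lie at or near background.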
